A study of Homo sapiens with 9 samples.

Results

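The short arm of chromosome 1 (1p), the short arm of chromosome 3 (3p) and the long arm of chromosome 11 (11q) are chromosome arms that neuroblastomas recurrently lose, and their HIF-1α binding sites are described here. Members were the distinct hg19 intervals whose first listed summit lay on chromosome 1 before 121.5 Mb, on chromosome 3 before 87.9 Mb or on chromosome 11 beyond 55.7 Mb, whatever their strength. The rule selected 1791 of the 15076 distinct intervals that 6 peak lists hold on chromosomes 1 to 22, X and Y. The other arms of the same chromosomes (1q, 3q and 11p), with 1514 intervals, served for comparison. The arms cover 288.4 Mb and the comparison arms 292.1 Mb, with each chromosome taken to end at its last interval.

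The study sequenced chromatin immunoprecipitated with an antibody against HIF-1α from SK-N-BE(2), a neuroblastoma cell line with amplified MYCN. The groups were normoxia, 21% oxygen, and hypoxia, 1% oxygen, each for 48 h in otherwise the same culture, with 3 libraries per group, and 3 input libraries of 21% oxygen. All groups are 1 cell line, and the labels do not say whether libraries came from separate cultures, so a p-value measures the spread between libraries, which may be technical.

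HIF-1α is the part of hypoxia-inducible factor 1 that cells regulate by oxygen. When oxygen is ample, prolyl hydroxylation marks it for the VHL ubiquitin ligase, whose gene lies on 3p. At low oxygen it escapes degradation, pairs with ARNT and binds hypoxia response elements at genes of glycolysis, glucose uptake and angiogenesis. Among its known targets, ENO1, a glycolytic enzyme, and SLC2A1, the glucose transporter GLUT1, lie on 1p, and BHLHE40, a transcriptional repressor, lies on 3p. In neuroblastoma, 1p loss often accompanies MYCN amplification, whereas 11q loss, often together with 3p loss, is typical of tumours without it. A genome of the build of the lists was not used here, so sites are given by position, without sequence and without a nearest gene.

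Low oxygen was where nearly all sites on these arms were called, as over the whole genome. The hypoxia lists held 151, 713 and 899 intervals on 1p, 3p and 11q, and the normoxia lists 5, 3 and 20. Over chromosomes 1 to 22, X and Y the hypoxia lists held 1408, 5833 and 7619, and the normoxia lists 75, 32 and 109. Reads of hypoxia 2 and hypoxia 3 were extended further than those of normoxia, as described below, so these counts are not on 1 scale. On 1p the normoxia lists held 2, 1 and 9 intervals, on 3p 0, 0 and 2, and on 11q 3, 2 and 9. The arms' share of each list was 10.7%, 12.2% and 11.8% in hypoxia and 6.67%, 9.38% and 18.3% in normoxia. These shares averaged 11.6% ± 0.773 (SD, n = 3) and 11.5% ± 6.12 (SD, n = 3), a difference of 0.119 percentage points (two-sided exact permutation test, p = 1, smallest possible 0.1). The normoxia libraries lay on both sides of the hypoxia libraries, and their shares rest on few intervals. The arms hold 9.34% of the chromosome length.

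The hypoxia lists differ in length, with 1408, 5833 and 7619 intervals, and in the fragment length to which reads were extended. That extension was taken as the shortest interval of each list, 48 bp in hypoxia 1, 155 bp in hypoxia 2 and 167 bp in hypoxia 3. The lists' ChIP depths, worked out with that extension, were alike, from 5.31 to 6.62 reads per kb. So were their control depths, from 7.09 to 7.85 reads per kb. A fold enrichment from hypoxia 1 is therefore not on the scale of one from the other 2 lists, and sites were ranked by fold within each list. In the 3 normoxia lists the extension was 46 to 47 bp, as in hypoxia 1.

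Per Mb, sites were most frequent on 11q, less so on 1p and fewest on 3p. On 11q the hypoxia libraries gave 0.784, 3.33 and 4.54 intervals per Mb, against 0.61, 1.69 and 2.37 on 11p. Every library was higher on 11q, by a geometric mean of 1.69-fold (1.29, 1.97 and 1.92). On 3p the values were 0.193, 1.21 and 1.31 intervals per Mb, against 0.292, 1.46 and 1.81 on 3q. Every library was lower on 3p, at 0.735 times the density of 3q (0.664, 0.828 and 0.722). On 1p they were 0.593, 2.83 and 3.5 per Mb, next to 0.585, 2.75 and 3.37 on 1q, a ratio of 1.03 (1.01, 1.03 and 1.04).

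**Figure D1:**
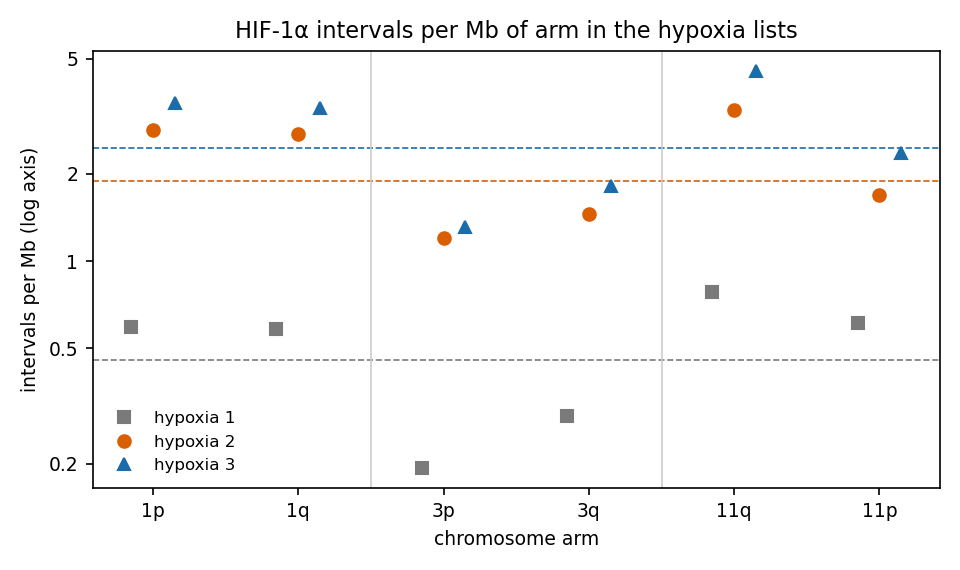
HIF-1α intervals per Mb (log axis) on each arm in the 3 hypoxia libraries; dashed lines are the same libraries over chromosomes 1 to 22, X and Y. In each library 3p was the lowest of the 6 arms and 11q the highest, and 1p and 1q differed by at most 1.04-fold.

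For scale, the remaining chromosomes together carried 0.445, 1.8 and 2.38 intervals per Mb, so 1p and 11q lay above them and 3p below them in every library. The order holds per Mb and not per gene. Per 100 protein-coding genes, counted for each arm in RefSeq's GRCh38.p14 table, 11q had 7.29, 30.9 and 42.2 intervals, 11p 7.56, 20.9 and 29.3, 1p 6.61, 31.6 and 39, 1q 7.61, 35.8 and 43.8, 3p 3.39, 21.2 and 23, and 3q 5.66, 28.3 and 35.2. On that scale 11q was under 1q in every library and under 11p in hypoxia 1, and 3p stayed under 3q in every library. With 3 libraries the exact two-sided sign-flip permutation test cannot fall below p = 0.25, and it gave p = 0.25 for each of the 3 pairs (0.25 after Benjamini-Hochberg adjustment over the 3). The near equality of 1p and 1q depends on the length counted and on the strength of the intervals kept. No interval lay on 1q between the boundary and position 142639258, a stretch that holds the centromere and its flanking repeats. With length taken from the first to the last interval 1p had 0.856 times the density of 1q, below it in 3 of 3 libraries. Among intervals with a fold of at least 6, 1p had 1.27 times the density of 1q, above it in every library. The ratio was 1.15 with −log10 q of at least 5, where 1p lay slightly below 1q in hypoxia 2. It was 1.14 with each list cut to its best intervals at the length of the shortest hypoxia list. Over the 3 arms pooled, density was 1.16 times that of the comparison arms (1.09, 1.2 and 1.2, exact sign-flip permutation p = 0.25), and without chromosome 11 it was 0.974 times. With length from the first to the last interval the pooled ratio was 1.08 (1.01, 1.11 and 1.11).

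Adjoining intervals of the 6 lists were joined into regions where they overlapped by at least 1 bp. The 3 arms held 1103 regions with a hypoxia call, of which 514 were called in at least 2 hypoxia libraries, 46.6% (95% exact binomial interval 43.6 to 49.6). The comparison arms had 417 of 944, 44.2% (41 to 47.4), and the genome 44%, so the arms' recurrence was close to the background. By arm it was 236 of 539 on 1p, 43.8% (39.6 to 48.1), 74 of 147 on 3p, 50.3% (42 to 58.7), and 204 of 417 on 11q, 48.9% (44 to 53.8). The intervals overlap between all 6 arms. They cover counting error only, as do all such intervals here.

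**Figure D2:**
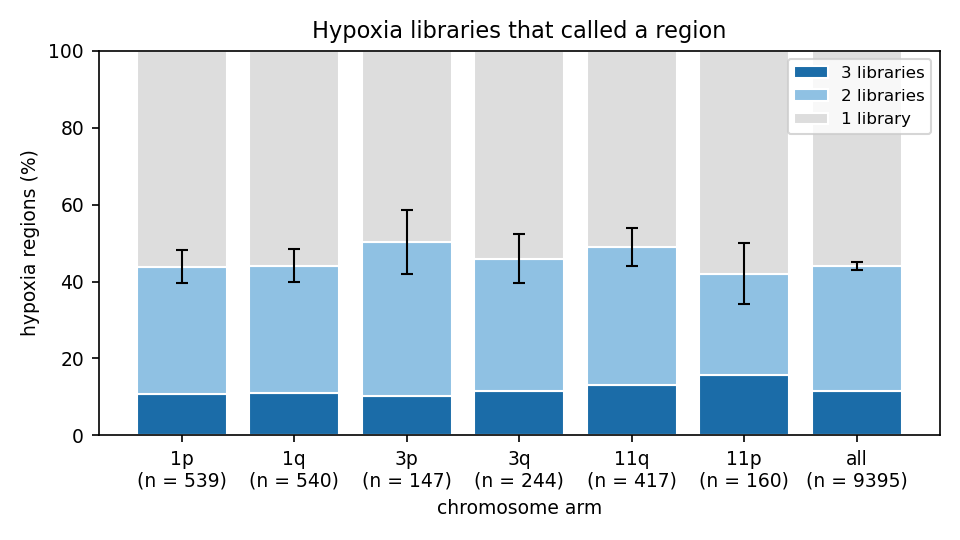
Percentage of the hypoxia regions of each arm called in 1, 2 or 3 hypoxia libraries; black bars are 95% exact binomial intervals of the share in at least 2 libraries, and n is the number of regions. The share in at least 2 libraries ran from 41.9% on 11p to 50.3% on 3p, and these intervals overlap.

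All 3 hypoxia libraries called 128 of the 1103 regions, 11.6%, against 11.5% genome-wide: 58 on 1p, 15 on 3p and 55 on 11q. Of the 151 intervals of hypoxia 1 on the arms, 145 lay in a region shared with another hypoxia library, 96% against 92.2% genome-wide. In hypoxia 2 it was 512 of 713, 71.8% against 71.1%, and in hypoxia 3 517 of 899, 57.5% against 54.5%. Of the 514 replicated regions, 380 were found by hypoxia 2 and hypoxia 3 and not by hypoxia 1, 73.9% against 72.3% genome-wide. These shares lay close to those of the genome.

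Sites were ranked by within-list fold only among the 1085 regions that every hypoxia library called, so regions of 2 libraries are not ranked here. First of the 3 arms by this ranking was chr1:8938459-8939744 on 1p, at rank 11. Its summit held 44, 209 and 241 reads in hypoxia 1, 2 and 3, which is 24.4-fold, 80.6-fold and 96.9-fold over the local background. In hypoxia 2 the highest fold of any 1p interval was 93.75, above that of this site. The site was also called in normoxia 3, with 16 reads and 13-fold. The next on 1p was chr1:18025377-18026254, with 28, 121 and 146 reads and no normoxia call, at 22-fold, 51.5-fold and 77.9-fold. The third, chr1:40626800-40627491, had 31, 124 and 143 reads in hypoxia and 16 reads in normoxia 3, at 19.9-fold, 48-fold and 76.3-fold against 13.1-fold. These 3 sites stood well above the arm's median of 10 reads per interval in hypoxia 1 and 14 in the other 2 libraries. The fourth and the fifth, chr1:37539362-37539963 and chr1:114354797-114355488, ranked 76 and 86 in the genome, with 70 and 100 reads in hypoxia 2 and no normoxia call.

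On 3p the first by the same ranking was chr3:81809952-81811114, ranked 66 in the genome, with 20, 117 and 114 reads at 15.9-fold, 45.3-fold and 54.1-fold. It lies on the part of the arm nearest to the centromere, in a region of 1163 bp. The second was chr3:5028421-5028982, with 18, 77 and 96 reads at 13.9-fold, 36.8-fold and 51.4-fold. The third, chr3:11683824-11684461, had 16, 76 and 88 reads at 12.9-fold, 40.1-fold and 47.2-fold, and was the 1 region of 3p that a normoxia list also called, with 9 reads and 7.73-fold in normoxia 3. Its local background stood at the genome-wide value in all 3 hypoxia lists and in normoxia 3. The fourth and the fifth were chr3:73364809-73365377, ranked 116, and chr3:8383390-8383852, ranked 122.

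On 11q the first by the same ranking was chr11:120013942-120015091, ranked 28, with 40, 166 and 183 reads at 22.3-fold, 68-fold and 50.8-fold. The second, chr11:126032705-126033550, had 33, 104 and 149 reads at 21.1-fold, 31.2-fold and 52.2-fold. The third, chr11:111339994-111340636, had 22, 102 and 105 reads at 17.5-fold, 42-fold and 38.6-fold. None of these 3 was called in normoxia. The fourth, chr11:67387933-67388532, was called in normoxia 3 with 8 reads and 6.96-fold, and the fifth, chr11:116295389-116295999, in no normoxia list. By comparison, the first on 1q was chr1:162851567-162852579, ranked 10, on 3q chr3:122101942-122103281, ranked 98, and on 11p chr11:1999864-2001295, ranked 4.

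The 15 regions of 3p found in all 3 hypoxia libraries ranked high as a set: their median within-list fold percentile was 90.8, against 76.8 for all 1085 such regions, 79.2 on 1p and 66.3 on 11q. The 28 of 3q had a median of 71.4. The median reads of these regions on 3p were 12, 40 and 44 in hypoxia 1, 2 and 3, against 10, 35 and 40 over the genome. They were 10.5, 40.5 and 37 on 1p and 10, 30 and 35 on 11q. Fold divides reads by the local background, and 33.3%, 46.7% and 60% of these 3p regions were at the genome-wide background, against 12.5%, 18.3% and 23.8% of all 1085.

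Few replicated hypoxia sites carried a normoxia call: 15 of 514 on the 3 arms, 2.92% (1.64 to 4.77), next to 8 of 417 on the comparison arms, 1.92% (0.832 to 3.75), and 2.25% genome-wide. On 1p there were 7, on 3p 1 and on 11q 7. The normoxia lists are short, so an absent call there does not show an absence of binding. Of the 20 regions of the arms with a normoxia call, 2 were called in at least 2 normoxia libraries, both on 11q and both in all 6 lists. On the comparison arms it was 2 of 9, and over the genome 29 of 138. At chr11:62369103-62369637 the summit held 10, 8 and 13 reads in normoxia and 17, 24 and 27 in hypoxia. At chr11:63605999-63606616 it held 6, 7 and 11 reads in normoxia and 15, 20 and 27 in hypoxia. In both, every hypoxia summit held more reads than every normoxia summit, but the extension of hypoxia 2 and hypoxia 3 was over 3 times as long. Against hypoxia 1, extended alike, the counts were 17 and 15.

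Neighbouring replicated regions lay a median of 561 kb apart on 3p, 190 kb on 1p and 154 kb on 11q, against 365 kb on 3q, 155 kb on 1q and 175 kb on 11p. The longest gap on 3p was 8.09 Mb, between positions 15540101 and 23632013, and 11p had one of 8.65 Mb. The megabase with the most replicated regions was 68 to 69 Mb on 11q, with 13, none of them called in hypoxia 1; 3q and 11p also reached 13. On 3p it was 48 to 49 Mb, with 5, and on 1p 3 megabases had 9 each, the first at 1 to 2 Mb.

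Each listed summit also carries a trace of the control DNA. The peak caller MACS2 compares the ChIP reads at a summit with a local background, the highest of several windows of the input around it (the fragment length, 1 kb and 10 kb), which it never lets fall under the genome-wide average. That background was solved from the fold and −log10 p columns and is given as a multiple of the genome-wide value. An interval at 1 is one where no input window held more than the genome average, so a low number of DNA copies can raise the share of such intervals but cannot bring the value under 1. One input read in the fragment window is worth 2.65 times in hypoxia 1, 0.872 in hypoxia 2 and 0.844 in hypoxia 3. Such steps are coarse: 2 reads there give 1.74 in hypoxia 2 and 1.69 in hypoxia 3. A 10 kb window holds 70.9 to 78.5 control reads on average, so values just above 1 come from the wider windows.

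Low control DNA was most common at the sites of 3p and rare at those of 11q, with 1p near the genome. On 3p, 35.3%, 53.8% and 64.4% of the intervals in hypoxia 1, 2 and 3 were at the genome-wide value, against 9.38%, 17.5% and 15.1% on 3q and a background of 13.3%, 21.9% and 31.8% over all chromosomes. On 1p the shares were 9.72%, 24.1% and 31.5%, against 1.35%, 1.15% and 3.52% on 1q. The shares of 1p thus lay near the genome's, and it is 1q that stood far under it. On 11q they were 3.23%, 7.99% and 8.08%, against 20.6%, 37.2% and 39.4% on 11p, the opposite order.

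**Figure D3:**
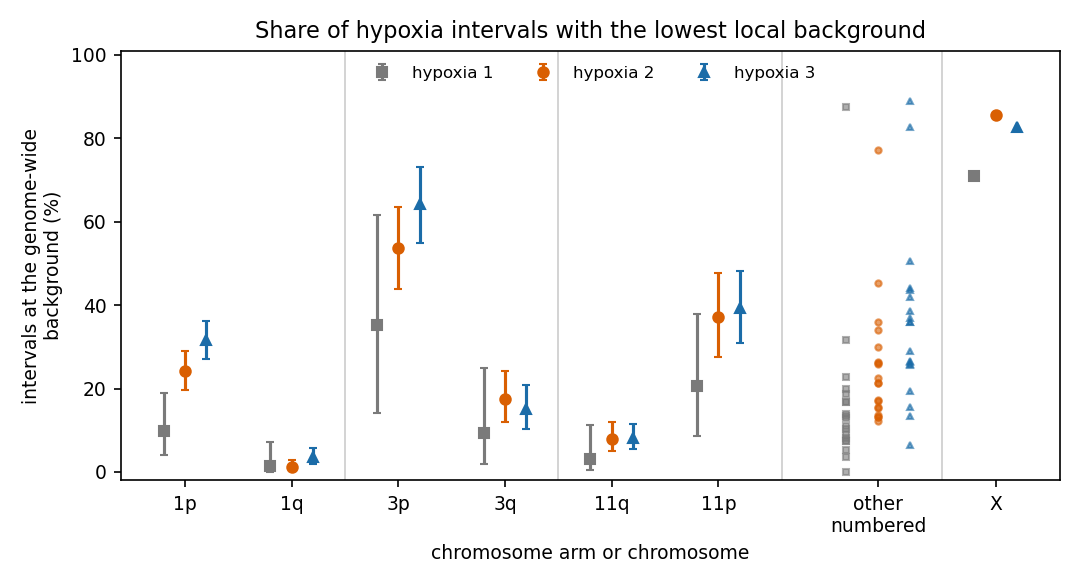
Percentage of hypoxia intervals whose local background equals the genome-wide value, by arm, with 95% exact binomial intervals; small points are the other numbered chromosomes and the last column is chromosome X. In each library 3p was the highest of the 6 arms, at 35.3% to 64.4%, and 1q the lowest, at 1.15% to 3.52%.

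The difference within a chromosome was +37.2 percentage points for 3p minus 3q (25.9, 36.3 and 49.3), +19.8 for 1p minus 1q (8.37, 23 and 28) and −26 for 11q minus 11p (−17.4, −29.2 and −31.3). Each had 1 sign in 3 of 3 libraries, with an exact two-sided sign-flip permutation p = 0.25 for each of the 3 pairs (0.25 after Benjamini-Hochberg adjustment), the smallest possible. Among the 6 arms and the 19 other numbered chromosomes, 3p ranked 2, 2 and 3 by this share in hypoxia 1, 2 and 3. Chromosome 18 was above it in all 3 libraries and chromosome 10 in hypoxia 3. The median background, another summary of the same values, gave ratios of 0.709 for 3p to 3q, 0.727 for 1p to 1q and 1.49 for 11q to 11p. The 3p median was 1, the lowest value possible, in hypoxia 2 and hypoxia 3, so the 3p ratio is bounded there. Limited to values that fit a 10 kb window, the 3p ratio was 1.11, but 3p then had only 1, 12 and 6 intervals, all above the genome-wide value by construction.

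Other places in the genome give this measure a scale. On chromosome X, 71%, 85.5% and 82.7% of the intervals were at the genome-wide value, above 3p as a whole in every library. On chromosome 2 between 14 and 18 Mb, around the amplified MYCN gene, the median background was 150 times the genome-wide value over 45 intervals of hypoxia 2 and 146 times over 84 of hypoxia 3, and hypoxia 1 had 2 intervals there, with a median of 1.68. The measure was not stable between libraries everywhere: on chromosome 10 the share at the genome-wide value was 11.1%, 25.9% and 82.7% in hypoxia 1, 2 and 3, of 63, 293 and 555 intervals. The background is read only where a site was called, and from the inputs of cells in 21% oxygen. Same-numbered normoxia and hypoxia lists solved to the same number of control reads per kb, so they may share 1 input, and the normoxia lists are not separate evidence.

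The 3p value came from the outer part of the arm. Between 0 and 60 Mb of chromosome 3, 6 of 11, 48 of 60 and 70 of 81 intervals were at the genome-wide value (54.5%, 80% and 86.4%). Chromosome X, at 71%, 85.5% and 82.7%, lay above this part in hypoxia 1 and hypoxia 2 and below it in hypoxia 3. From 60 Mb to the boundary 0 of 6, 9 of 46 and 4 of 34 were (0%, 19.6% and 11.8%), which is near 3q. The position of 60 Mb was chosen after the values were seen. In windows of 10 Mb, hypoxia 3 had 77.8% to 100% in each of the 6 windows under 60 Mb and 6.25% in the next. Hypoxia 2 had 33.3% to 100% in them, with 100% between 50 and 60 Mb, and 29.2% in the next. All but 1 of these windows hold fewer than 20 intervals.

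**Figure D4:**
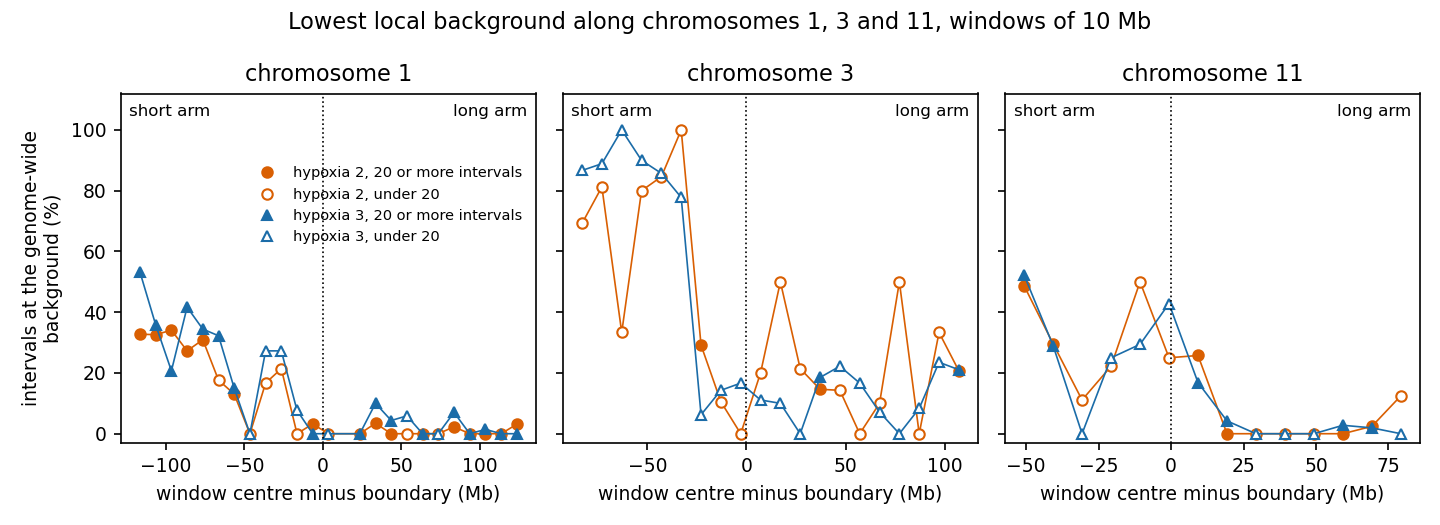
Percentage of intervals at the genome-wide background in windows of 10 Mb, placed by the distance of the window's centre from the arm boundary (dotted line), for hypoxia 2 and hypoxia 3; open symbols are windows with fewer than 20 intervals. The 6 windows of 3p farthest from the boundary lie at 77.8% to 100% in hypoxia 3 and at 33.3% to 100% in hypoxia 2, and those centred 22.9 Mb or less from it at 29.2% or less; hypoxia 1 is not drawn because its windows hold few intervals.

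The same background values can be read region by region, split at the same 60 Mb, which was chosen after they were seen. This regrouping is not separate evidence of the step. Of the regions called in both hypoxia 2 and hypoxia 3, 10.6% were at the genome-wide value in both lists over the genome. Between 0 and 60 Mb of chromosome 3 it was 35 of 51, 68.6% (54.1 to 80.9), with 15 more in 1 of the lists and 1 in neither. From 60 Mb to the boundary it was 0 of 23 (0 to 14.8), with 4 in 1 of the lists. The last region of the outer part at 1 in both was chr3:57008647-57008963. After it, chr3:59035544-59035786 had 1 in hypoxia 2 and 1.69 in hypoxia 3, and chr3:62227000-62227285 had 2.43 and 1.55. The 1 region under 60 Mb that was above 1 in both lists was chr3:48594416-48595180, at 2.65, 2.62 and 1.69 in hypoxia 1, 2 and 3.

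Binding within 3p did not follow the same split in every measure. The outer 60 Mb held 0.183, 1 and 1.35 intervals per Mb, and the inner part 0.215, 1.65 and 1.22, higher in hypoxia 1 and hypoxia 2 and lower in hypoxia 3. Regions of the outer part recurred in 51 of 90, 56.7% (45.8 to 67.1), and those of the inner part in 23 of 57, 40.4% (27.6 to 54.2), with overlapping intervals. Median reads per interval were 8, 13 and 11 in the outer part and 17.5, 12.5 and 13 in the inner part.

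On 1p the share was uneven along the arm and low nearest to the centromere. In the windows of 10 Mb between 50 and 100 Mb it ran from 0% to 21.4% in hypoxia 2 and from 0% to 32.3% in hypoxia 3. Between 0 and 100 Mb, 11.7%, 27.9% and 35.1% of the intervals were at the genome-wide value, and beyond 100 Mb 0 of 12, 1 of 50 and 1 of 46 were. The first 10 Mb had the highest share in hypoxia 3, 42 of 79 intervals, 53.2%, and 19 of 58, 32.8%, in hypoxia 2. In regions of both lists the share at the genome-wide value in both was 18 of 198, 9.09% (5.48 to 14), under 100 Mb, near the genome's 10.6%. It was 0 of 33 (0 to 10.6) between there and the boundary, and 2 of 234, 0.855% (0.104 to 3.05), on 1q.

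On 11q the share fell with distance from the centromere. Before 70 Mb, 5.26%, 25.7% and 20% of the intervals were at the genome-wide value, and beyond it 1 of 43, 2 of 189 and 6 of 244 were (2.33%, 1.06% and 2.46%). In regions of both lists it was 3 of 58, 5.17% (1.08 to 14.4), before 70 Mb and 0 of 145 (0 to 2.51) beyond it, against 15 of 65, 23.1% (13.5 to 35.2), on 11p. Density fell along with it, from 1.33, 5.18 and 8.04 intervals per Mb before 70 Mb to 0.664, 2.92 and 3.77 beyond it, and recurrence was 59 of 130, 45.4% (36.6 to 54.4), and 145 of 287, 50.5% (44.6 to 56.5). The positions of 70 and 100 Mb were also chosen after the values were seen.

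A few members stood on very high control signal. The last interval before the boundary on chromosome 1, chr1:121484421-121485291, beside the centromere, had 327 reads in hypoxia 3 at a background 282 times the genome-wide value, the highest of the list, and 1.31-fold enrichment; the first after the boundary was chr1:142639258-142639602, with 20 reads in hypoxia 2 at 3.49 times. On 11q the highest was chr11:62609004-62609369, called in all 3 hypoxia libraries and in normoxia 3, with 14, 49 and 44 reads in hypoxia at 10.6, 19.2 and 11 times the genome-wide value. It ranked last by fold among the 1085 regions of all 3 hypoxia libraries. On 3p the highest was chr3:76365053-76365594, at 1.91, 1.34 and 4.22 times. The members next to the other boundaries were chr3:86076567-86076733, with 7 reads in hypoxia 3, and chr11:56594772-56595136, with 9 reads in hypoxia 3. Just outside were chr3:88108192-88108787, with 6, 35 and 40 reads, and chr11:51590506-51590589, with 39 reads in hypoxia 1 and 31 in normoxia 1. Intervals at 10 times or more were 5 of 151, 1 of 713 and 3 of 899 of the arms' intervals in hypoxia 1, 2 and 3. Over all chromosomes they were 83 of 1408, 45 of 5833 and 96 of 7619, a larger share in every library. In hypoxia 2 and hypoxia 3 much of that genome count lies around the amplified MYCN gene. There, between 14 and 18 Mb of chromosome 2, 45 and 84 intervals had median backgrounds of 150 and 146 times. The genome's share without that stretch was not worked out, so the arms are not shown to be low in these 2 libraries.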

How the data were processed

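HIF-1α ChIP-seq peak lists were deposited for 3 normoxia and 3 hypoxia libraries; the inputs were not used here. Per the submitters' processing notes, BWA 0.7.17, MACS2 and hg19 were used; no caller settings were given in these sources. Each deposited list gives a fold ratio over local background, −log10 p and −log10 q, and a score that equals 10 times −log10 q rounded down, from the authors' calls per library. Reads and local background at each of the 16463 summits were solved from the fold and p as a Poisson tail with a pseudocount of 1, to within 0.001 in −log10 p (100% solved to whole reads). Of 500 simulated summits, 100% were recovered. An interval's values are those of its best summit. Tests were exact permutations over libraries; shares have Clopper-Pearson 95% intervals. Members, lists and tests were chosen with earlier results of these data known. Named regions were the first 5 on each arm (first 1 on comparison arms) by mean within-list fold percentile among regions of all 3 hypoxia libraries, those in at least 2 normoxia lists, those next to each boundary, and the highest background per arm. A planned list of nearby genes was not used, as it needs an hg19 annotation; genes per arm were counted in GRCh38.p14, each chromosome split at its longest stretch without a protein-coding gene. Alternatives were stricter q (−log10 q of at least 5) or fold (at least 6), other overlaps, lengths and background summaries, and leaving out libraries. Python 3.11.15, numpy 2.4.6, pandas 2.3.3, scipy 1.17.1 and matplotlib 3.10.9 were used.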

Additional observations from a re-analysis of the deposited data

Results flagged for a closer look

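The share of hypoxia intervals at the genome-wide background moved in opposite directions on chromosomes 1 and 11, and on chromosomes 3 and 11, when the arms named in neuroblastoma were set against the other arm. It was higher on 1p than on 1q and lower on 11q than on 11p in every hypoxia library, and the mean differences lay 45.8 percentage points apart. It was higher on 3p than on 3q in every library, and the mean differences of 3p and 11q lay 63.1 points apart. Neither distance was tested.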

How the results depend on the processing

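Each arm pair kept its direction in every alternative run, except that 1p to 1q density was 0.856 with length from the first to the last interval and the 3p to 3q background ratio was 1.11 with 10 kb values only. Over all alternatives, density ratios ran from 0.856 to 1.272 for 1p, 0.692 to 0.8444 for 3p and 1.405 to 1.944 for 11q. Without 1 hypoxia library, density ratios were 1.02 to 1.04 for 1p, 0.692 to 0.773 for 3p and 1.57 to 1.94 for 11q, and differences in the share at the genome-wide background 15.7 to 25.5, 31.1 to 42.8 and −30.3 to −23.3 points. Pooled values hid the arms' opposite directions. In alternatives added after seeing the data, chromosomes 1 and 3 alone gave a density ratio of 0.974 (0.901 from first to last interval), and chromosome 11 alone a background ratio of 1.49, −26 points and a recurrence difference of 7.05 points. The pooled recurrence difference was 2.43 points, −0.366 for all 3 libraries, and −1.39 to 2.54 without 1 library. The hypoxia minus normoxia share was −1.72 points at a fold of at least 6 (exact p = 0.8), −2 without backgrounds of 10 times or more (exact p = 0.9), and −2.28 to 3.56 without 1 library. With the replicate number as a block it was 0.119 (exact sign-flip p = 1). The deviations of same-numbered libraries had correlations of −0.0094, 0.0312 and −0.0166 over 2050 regions. The best match was the own number for 1 library of 6, so the labels' numbers were not taken as pairs. The short hypoxia 1 list (17 intervals on 3p) limits its 3p values.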
